A study of Mus musculus with 9 samples.

Results

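The RBM family of RNA-binding motif proteins was followed through 9 bulk RNA-seq libraries of AML12 hepatocytes. Its members were taken by name, as every gene whose GENCODE mouse symbol is Rbm followed by a digit. GENCODE M21 holds 44 such symbols, and 39 of them were among the 21959 genes listed in the count tables. The other 5 symbols, which were not used here, were the pseudogenes Rbm3-ps, Rbm6-ps1 and Rbm6-ps2 and the antisense genes Rbm3os and Rbm46os. Of the 39 listed genes, 32 passed the filter on low counts and were tested. Rbm11, Rbm24, Rbm46 and Rbm31y had no count in any library. Rbm42 and Rbm44 had at most 2 counts in a library and Rbm8a2 at most 1, all under the limit of 3 counts that a count of 0 allows.

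AML12 is a line of hepatocytes from a mouse that carries a transforming growth factor alpha transgene, and every group was grown with free fatty acid (FFA). The group Veh received phosphate-buffered saline. Both other groups received vesicles shed by aged osteocytes (OCY-EV) at 2 µg/ml, after the vesicles had spent 30 min with a control antagomir (OCY-EV+ANTA-NC) or with antagomir-483-5p, an oligonucleotide against miR-483-5p (OCY-EV+ANTA). Each group held 3 libraries. There was no group with vesicles alone or with an antagomir alone, so OCY-EV+ANTA-NC against Veh compares vesicles and control antagomir together with saline. The step that followed this incubation is labelled both as ultracentrifugation and as ultrafiltration. Separate cultures are not stated for the libraries of a group, so each p-value measures spread between libraries that may be technical only.

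RBM proteins are joined by a shared RNA recognition motif, a fold that grips short stretches of single-stranded RNA, and not by a shared pathway. Most of them work in the nucleus, where they choose splice sites, sit in the spliceosome, guide the enzyme that writes N6-methyladenosine (m6A) on RNA, or hand unwanted transcripts to the nuclear exosome. Others act on mature mRNA: Rbm47 helps Apobec1 edit apolipoprotein B mRNA, a reaction of liver and intestine, and Rbm3 is induced by mild cold.

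Total counts per library ran from 17298814 to 21737643, and 11562 genes were tested. The family took between 0.223% and 0.249% of the counts of a library. The hepatocyte regulator Hnf4a was present at 48.9 to 66.1 CPM (counts scaled by library total and TMM factor), and Alb, the albumin gene, at only 1.73 to 7.21 CPM. Serpina1a had no count and Cyp2e1 at most 1, so several markers of mature hepatocytes were at or near 0 in this line. The summed level of the 10 hepatocyte markers was 3626 to 3646 CPM in Veh, 3419 to 3523 in OCY-EV+ANTA-NC and 3621 to 3811 in OCY-EV+ANTA, nearly all of it the keratin genes Krt8 and Krt18. In OCY-EV+ANTA against OCY-EV+ANTA-NC, where 14.7% of all genes were called, 5 of the 8 tested markers were called with edgeR. There Alb fell by 0.76 on the log2 scale (adjusted p = 0.039), the apolipoprotein gene Apoa1 by 0.68 (0.024) and the transthyretin gene Ttr by 1.28 (0.0073), while Krt8 rose by 0.12 (0.0026) and Krt18 by 0.10 (0.0098). The part of these levels in any result on the family was not tested. The 5 cholangiocyte markers summed to 3742 to 3820, 3458 to 3604 and 3756 to 4075 CPM in the same order, most of it the keratin gene Krt19 at 2323 to 2865 CPM. Of the 3 tested, Krt19 alone was called with edgeR, higher by 0.19 (adjusted p = 0.00034) in OCY-EV+ANTA against OCY-EV+ANTA-NC. Of the 6 osteocyte markers, which bear on RNA carried in with the vesicles, Sost and Dmp1 had no count and the summed level was at most 0.488 CPM in any library. Markers of macrophages, stellate cells and endothelial cells summed to at most 14.99, 4.66 and 1.62 CPM. In bulk RNA, fewer cells with a transcript and less of it per cell cannot be told apart.

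The RNA that the antagomir was directed at is shown first, because its seed defines which 3′ UTRs it could pair with. In the mouse its mature sequence lies at chr7:142654968-142654989 on the minus strand (GRCm38.p6, RefSeq), and the capitals mark the seed, bases 2 to 8.
mmu-miR-483-5p: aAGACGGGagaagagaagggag
The 7 bases that pair with this seed, CCCGTCT, were absent from the 3′ UTR of all 32 tested members. They were present in 374 of the 11418 tested genes with an annotated 3′ UTR, which is 3.28%. Median 3′ UTR lengths were 1100 bases for the members and 1140 bases for all those genes. The absence covers these letters in 1 annotated transcript per gene and nothing more.

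Promoters were searched on both strands for 8 motifs that were chosen after values of these genes had been seen, so the counts are descriptions. RefSeq windows, from 250 bases before to 50 bases after a gene's start, were at hand for 25 of the 32 tested members. The palindrome CTCGCGAG, the core of an element that the proteins Kaiso (ZBTB33) and BANP are known to bind, stood in 3 of those 25, in 2.26% of the 9121 tested genes with a window and in 0.919% of all 32851 windows. Its 3 holders, Rbm39, Rbm15 and Rbm26, are among the members called below, but their changes differ. Rbm39 and Rbm26 were called higher in OCY-EV+ANTA-NC against Veh and lower in OCY-EV+ANTA against OCY-EV+ANTA-NC. Rbm15 was called higher in OCY-EV+ANTA against both other groups. A link of the motif with these changes was not tested. The 30 bases around each match are shown on the gene's own strand, with the motif in capitals. Rbm39 holds it at 2 places, chr2:156180223-156180252 and chr2:156180404-156180433, Rbm15 at chr3:107333467-107333496 and Rbm26 at chr14:105177302-105177331, all on the minus strand of GRCm38.p6. Counted from the RefSeq start that set the window, the motif begins at -3 and -184 in Rbm39, at -196 in Rbm15 and at -6 in Rbm26. In GENCODE M21 the first base is chr3:107333673 for Rbm15 and chr14:105177327 for Rbm26. By those starts the Rbm15 and Rbm26 motifs lie inside the genes and not upstream.
Rbm39, near the start: cggggcagtttCTCGCGAGagcccgtgctt
Rbm39, upstream: gaggacgcaccCTCGCGAGacttgggtgca
Rbm15: gctctttgtctCTCGCGAGatcggagagag
Rbm26: tcgcactcattCTCGCGAGatttaccggca
The other 7 motifs do not contain one another or this one. CCAAT and the GC box GGGCGG were each found in 11 of the 25 windows, against 43.5% and 69.4% of tested genes. The E-box CACGTG was found in 3 (11.7% of tested genes). The ETS element ACTTCCGG was found in 1 (9.85% of tested genes), that of Rbm19, and the YY1 element AAGATGGC in 3 (5.48%), those of Rbm15b, Rbm26 and Rbm7. The cyclic AMP response element TGACGTCA, in 3.82% of tested genes, and the NRF1 element GCATGCGC, in 6.23%, were in none.

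Levels per gene length spanned more than 2 orders of magnitude within the family. As FPKM, which divides by the authors' gene length and library total, averaged over 9 libraries, Rbm3 stood highest at 60.9 ± 2.48 (SD), above 94.3% of tested genes, and Rbm39 next at 55.0 ± 5.06. The ranges of these 2 genes over the libraries overlapped. The order depends on the lengths, which for 30 of the 32 members exceed that of the longest coding transcript (6946 against 2810 bases for Rbm39, 4698 against 2792 for Rbm3, 17380 against 4226 for Rbm25). Per kilobase of that transcript, a scale added after the data were seen, Rbm39 stood above Rbm3, at 135.8 ± 11.4 against 102.5 ± 4.38 CPM (SD), and Rbm25 came next at 57.2 ± 6.92. Rbm17 at 35.3 ± 0.530 and Rbm7 at 25.3 ± 0.915 each lay apart from their neighbours in the order. From Rbm47 (20.3) through Rbm8a (17.8), Rbm25 (13.9), Rbm27 (13.6), Rbm45 (13.0), Rbm28 (12.6), Rbm10 (12.3), Rbm22 (11.5) and Rbm33 (10.8) to Rbm18 (10.7), each FPKM range overlapped the next. Rbm5 and Rbm26 followed at 9.12 and 8.97 FPKM, and Rbm15 and Rbm15b at 6.02 and 5.60. The other 14 tested members lay between 4.62 (Rbm34) and 0.393 FPKM (Rbm43), the latter apart from all others.

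**Figure D1:**
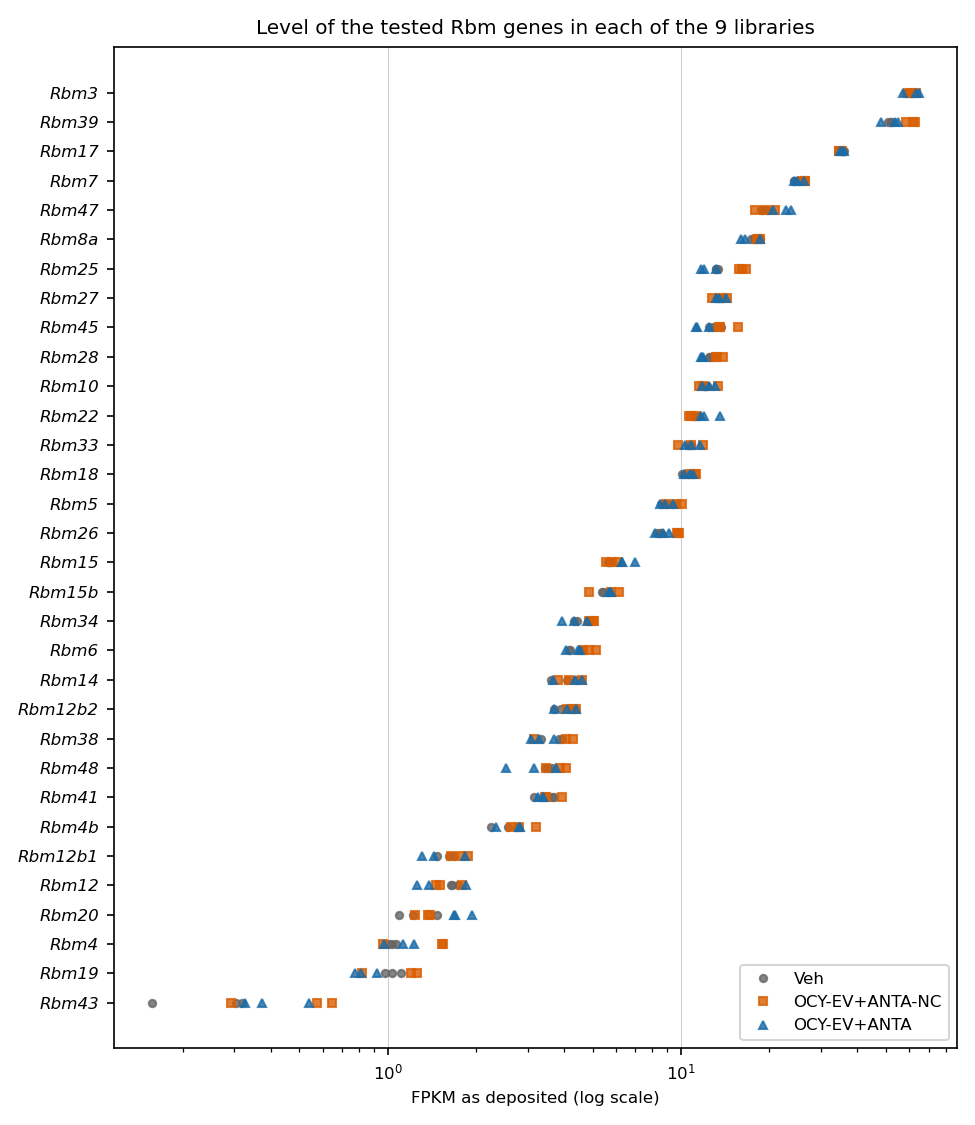
FPKM of the 32 tested Rbm genes in each of the 9 libraries on a log axis, ordered by mean, with the group of each library shown by colour and shape. Rbm3 and Rbm39 are highest, Rbm43 is lowest at a mean of 0.393, and the 3 groups lie close together for nearly every gene.

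Some of these levels rest on sequence that other genes share, and the strand setting of the counting is not given. For Rbm42, 92.3% of the 50-base words of its transcript also occur in other genes, so its near-absence says little about its expression. Most of those words are in Gm21982, a read-through gene on the same strand. Rbm4 shares 66.5% of such words with other genes, Gm21992 foremost. Rbm12b1 and Rbm12b2 share 63.1% and 53.8% with other genes, each foremost with the other. Rbm10 shares 41.0% with other genes, foremost the pseudogene Gm12799, and 30.8% of the exon bases of Rbm4b are overlapped by a gene on the opposite strand. In all, 12 of the 32 tested members reached 10% on at least 1 of these measures, and their values are uncertain to that extent. All 9 members called below were among the other 20.

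OCY-EV+ANTA-NC against Veh asks what vesicles with the control antagomir did to these transcripts. Rbm25, Rbm39 and Rbm26, regulators of splicing and of nuclear RNA decay, were higher by 20.3%, 16.3% and 14.0%. They were the 3 called members (adjusted p under 0.05, edgeR) of 32, while 1.02% of all 11562 genes were called and 0.813% called higher. No member was called lower, and none was lower at an unadjusted p under 0.05 or called lower with DESeq2. At that unadjusted level 6 members were higher. The median log2 fold change of the 32 members was 0.07, against -0.0047 over all genes tested, and 25 members had a positive value. Groups did not overlap for 5 members that were higher and 1 that was lower, against 8.99% and 10.4% of all genes.

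OCY-EV+ANTA against OCY-EV+ANTA-NC asks what changed when the vesicles had met antagomir-483-5p instead of the control. Rbm25, Rbm39, Rbm26, Rbm28 and Rbm45 were lower by 9.37% to 22.6%, and Rbm47, Rbm22, Rbm20 and Rbm15 were higher by 14.6% to 35.7%. These 9 called members of 32 stand beside 14.7% of all genes called in this comparison, 7.59% higher and 7.09% lower. The split of 4 higher and 5 lower became 2 and 5 with limma on log2(FPKM + 1), and 1 and 5 with a pseudocount of 0.1. The median over members was -0.07 on the log2 scale, against -0.0020 over all genes, and 21 of 32 values were negative. Groups did not overlap for 5 higher and 5 lower members, against 15.3% and 14.7% of genes.

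OCY-EV+ANTA against Veh sets the vesicles with antagomir-483-5p beside saline. Rbm20, Rbm47 and Rbm15 were called higher, by 42.0%, 18.02% and 15.5%, and no other member was called, while 6.52% of all genes were, 3.06% higher and 3.46% lower. Groups did not overlap for 6 higher and 2 lower members, against 12.3% and 12.8% of all genes. With all 9 libraries, none was called lower in DESeq2, or in edgeR without the replicate number as a block. With that block Rbm25 was called lower (log2 value -0.10, adjusted p = 0.024, edgeR). Without it, 2 members (Rbm25 and Rbm28) were lower at an unadjusted p under 0.05 in edgeR. Without OCY-EV+ANTA 3, Rbm25 was called lower (log2 value -0.15, adjusted p = 0.032, edgeR). The median over members was 0.03 on the log2 scale, against 0.00013 over all genes. The count rests on single libraries: it was 0 without Veh 2, with 4 members at an unadjusted p under 0.05, 1 without Veh 3 or without OCY-EV+ANTA 2, and 2 without Veh 1 or without OCY-EV+ANTA 3 (there Rbm15 higher and Rbm25 lower).

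The 3 comparisons share their groups in pairs, so their values are not independent. In Rbm25, Rbm26, Rbm28 and Rbm39 every OCY-EV+ANTA-NC library lay above all 6 others, an order held by 4.74% of all genes tested. In Rbm15, Rbm20, Rbm22 and Rbm47 every OCY-EV+ANTA library lay above all 6 others, an order held by 7.45% of genes.

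**Figure D2:**
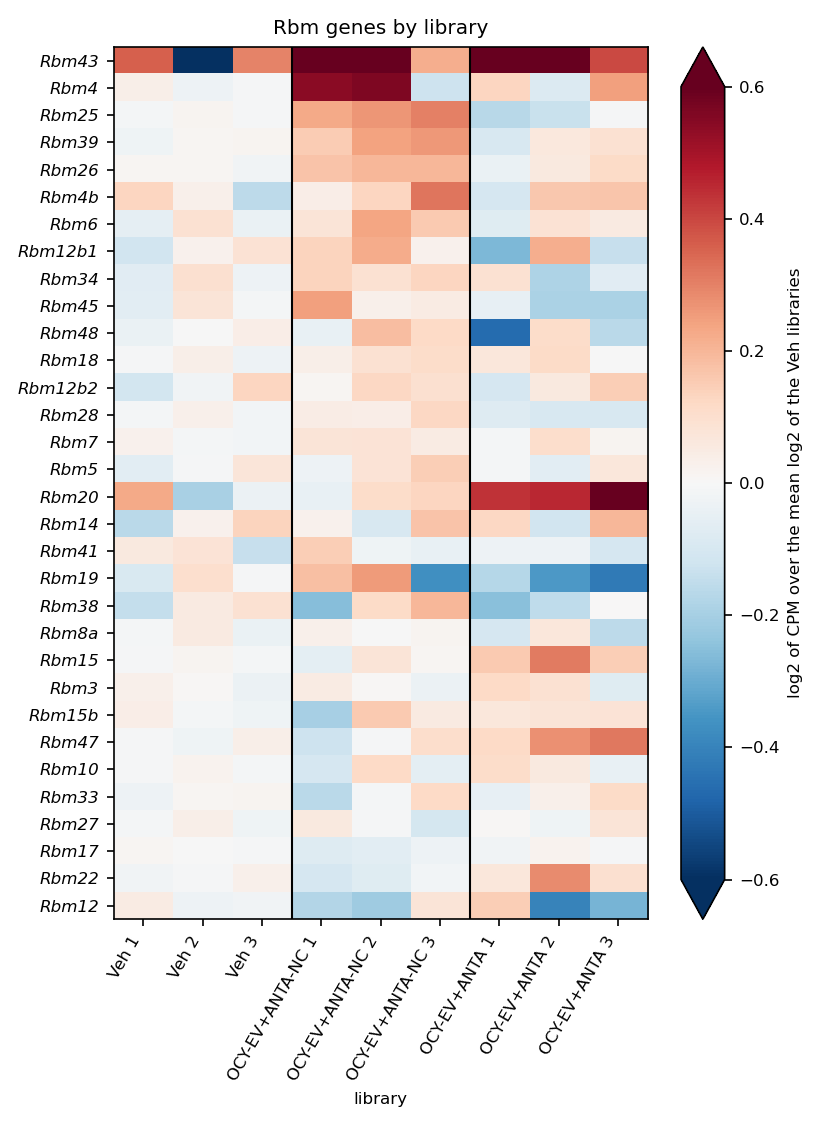
Heat map of the 32 tested Rbm genes (rows) in the 9 libraries (columns), as log2 CPM minus the mean log2 CPM of the Veh libraries, with colours saturating at the ends of the scale bar. Rows are ordered by the mean difference of the OCY-EV+ANTA-NC libraries, with the low-level Rbm43 at the top, and Rbm25 is red in all 3 OCY-EV+ANTA-NC columns and not in the OCY-EV+ANTA columns.

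Splicing factors form the largest role group, with 15 members of which 12 were tested. In OCY-EV+ANTA-NC against Veh 2 of the 12 were called higher, beside 0.813% of all genes, and 9 had a positive value. In OCY-EV+ANTA against OCY-EV+ANTA-NC 2 were called higher and 2 lower, beside 7.59% and 7.09% of all genes, and 8 values were negative. In OCY-EV+ANTA against Veh 1 was called higher, beside 3.06% of all genes, and 7 values were positive. Rbm25 works with the U1 particle in choosing alternative 5′ splice sites, as shown in human cells. Its levels were 229.7, 233.7 and 230.4 CPM in Veh, 271, 278.2 and 285.5 in OCY-EV+ANTA-NC, and 205.9, 210.6 and 230 in OCY-EV+ANTA. The 3 OCY-EV+ANTA-NC libraries stood well above all the rest, while the highest OCY-EV+ANTA library lay just above the lowest Veh library. The log2 fold change was 0.27 (SE 0.04, adjusted p = 0.0011) in OCY-EV+ANTA-NC against Veh and -0.37 (SE 0.04, adjusted p = 3.8e-06) in OCY-EV+ANTA against OCY-EV+ANTA-NC. Both calls held without any single library, with adjusted p up to 0.0109 and 6.97e-05. Against Veh the OCY-EV+ANTA value was -0.10 (SE 0.04, adjusted p = 0.14).

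Rbm39, a relative of the U2AF large subunit that also serves as a coactivator of transcription, was second in FPKM and above Rbm3 in CPM in every library. Its levels were 353.3, 363.2 and 364.2 CPM in Veh, 400.1, 425.2 and 431.9 in OCY-EV+ANTA-NC, and 337.4, 376.5 and 383.2 in OCY-EV+ANTA. Again the OCY-EV+ANTA-NC libraries were highest without overlap, and the other groups overlapped each other. Against Veh its log2 fold change in OCY-EV+ANTA-NC was 0.22 (SE 0.04, adjusted p = 0.0098). In OCY-EV+ANTA it was -0.20 (SE 0.04, adjusted p = 0.0029) against OCY-EV+ANTA-NC, which held without any single library. The rise over Veh was no longer called without Veh 1 (adjusted p = 0.0521) or OCY-EV+ANTA-NC 3 (0.0535), nor with the GC trend removed (0.0875).

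Rbm22 sits at the catalytic centre of the spliceosome, where it contacts the U6 snRNA and the intron. It was measured at 59.3, 59.7 and 61.3 CPM in Veh, 56.0, 57.0 and 59.5 in OCY-EV+ANTA-NC, and 63.0, 73.3 and 64.3 in OCY-EV+ANTA. The OCY-EV+ANTA libraries were above all the others, and 1 of them far above its own group. The log2 fold change against OCY-EV+ANTA-NC was 0.22 (SE 0.05, adjusted p = 0.010), and without that library, OCY-EV+ANTA 2, the adjusted p was 0.0839. Against Veh it was 0.15 (SE 0.05, adjusted p = 0.092), which was not called.

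Rbm20, known for repressing exons of titin in heart and skeletal muscle, was low in these cells, at 1.46 FPKM. It was measured at 9.997, 7.48 and 8.36 CPM in Veh, 8.30, 9.24 and 9.35 in OCY-EV+ANTA-NC, and 11.6, 11.7 and 13.2 in OCY-EV+ANTA. All 3 OCY-EV+ANTA libraries were above the highest of the other 6. Its log2 fold changes, the largest among the called members, were 0.44 (SE 0.12, adjusted p = 0.015) against OCY-EV+ANTA-NC and 0.51 (SE 0.12, adjusted p = 0.013) against Veh. The former was not called without OCY-EV+ANTA-NC 1 (adjusted p = 0.0601) or OCY-EV+ANTA 3 (0.0800), and the latter not without Veh 2 (0.0909), Veh 3 (0.0512) or OCY-EV+ANTA 3 (0.0744).

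The other 8 tested splicing members did not pass in the edgeR fit of all 9 libraries. Rbm17 (SPF45), which acts at 3′ splice sites, was the steadiest of the abundant members, at 86.7, 85.9 and 85.6 CPM in Veh, 81.7, 82.5 and 84.3 in OCY-EV+ANTA-NC, and 84.7, 87.4 and 85.7 in OCY-EV+ANTA. Its OCY-EV+ANTA-NC libraries were the lowest, by a log2 difference from Veh of only -0.06 (SE 0.04, adjusted p = 0.59). Rbm5, Rbm6 and Rbm10 are related regulators of alternative splicing, and Rbm5 and Rbm6 are neighbours on chromosome 9. Rbm6 had values of 0.15 (SE 0.05, adjusted p = 0.19) in OCY-EV+ANTA-NC against Veh and -0.13 (SE 0.06, adjusted p = 0.12) in OCY-EV+ANTA against OCY-EV+ANTA-NC. With library size alone as the scaling the latter was called (-0.16, adjusted p = 0.0498). For Rbm5 they were 0.07 and -0.07, and for Rbm10 -0.01 and 0.05. Rbm41 and Rbm48, tied to the minor spliceosome in human cells, had values of -0.08 and -0.24 (adjusted p = 0.53 and 0.20) in OCY-EV+ANTA against OCY-EV+ANTA-NC. Rbm4 and Rbm4b, close paralogs on chromosome 19, had values of 0.36 (SE 0.17, adjusted p = 0.36) and 0.16 (adjusted p = 0.43) in OCY-EV+ANTA-NC against Veh. Rbm11, Rbm24 and Rbm42 were not tested.

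**Figure D3:**
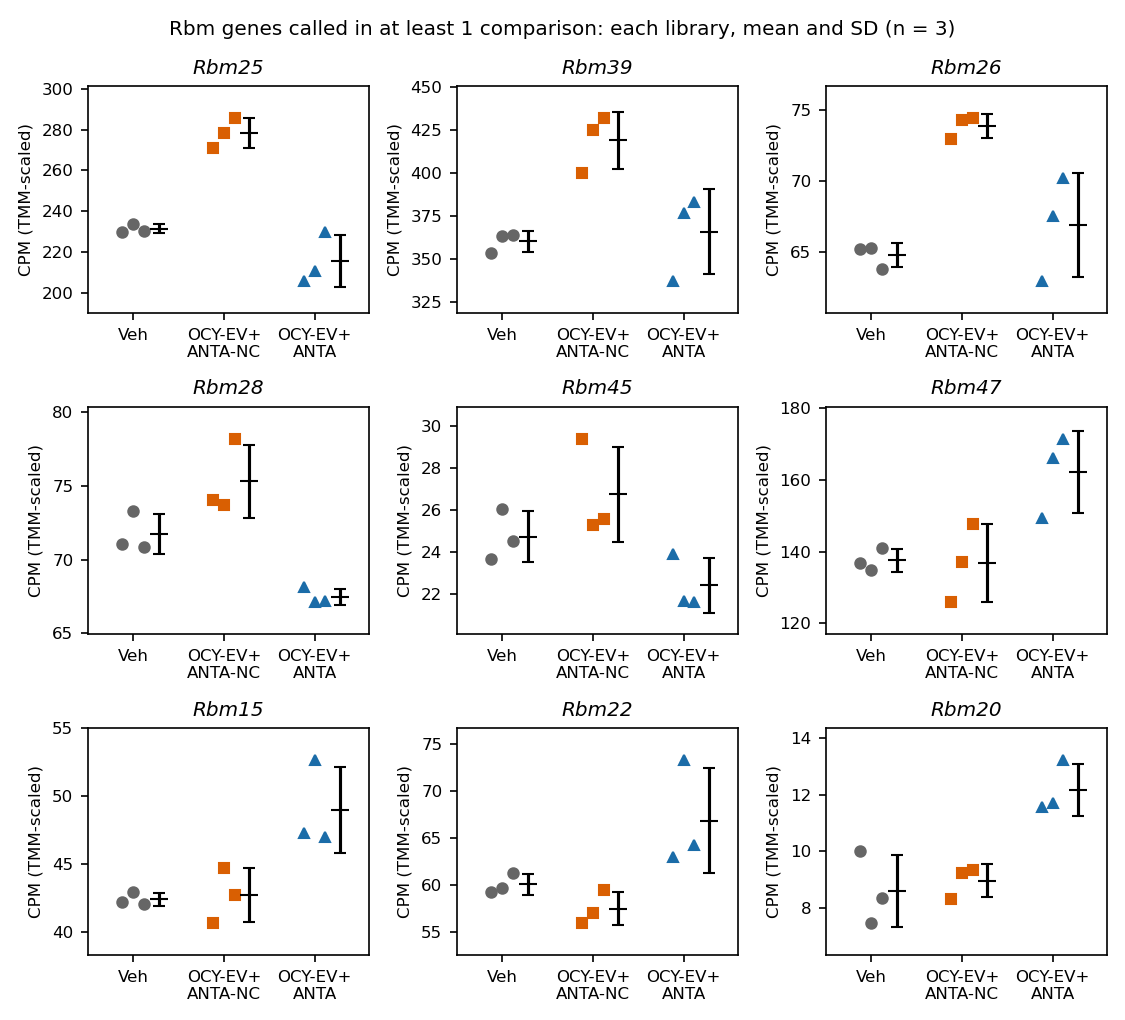
TMM-scaled CPM of the 9 Rbm genes called in at least 1 comparison, 1 panel per gene, with each library as a point and the mean and SD of its group (n = 3) beside the points; the CPM axes do not start at 0. Rbm25, Rbm39, Rbm26, Rbm28 and Rbm45 fall from OCY-EV+ANTA-NC to OCY-EV+ANTA, and Rbm47, Rbm15, Rbm22 and Rbm20 rise.

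Rbm8a (Y14), a core subunit of the exon junction complex that marks spliced mRNA, showed no called change. Its means were 57.8 ± 1.96 CPM in Veh, 58.4 ± 0.636 in OCY-EV+ANTA-NC and 55.4 ± 4.55 in OCY-EV+ANTA (SD, n = 3). The log2 difference was 0.01 (SE 0.05, adjusted p = 0.95) between the first 2 groups and -0.08 (SE 0.05, adjusted p = 0.40) between the last 2.

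Of the 3 members tied to m6A, Rbm15 rose in OCY-EV+ANTA against both other groups, and Rbm15b and Rbm33 were not called. Rbm15 and its paralog Rbm15b bring the methyltransferase complex to its target RNAs. Rbm15 was measured at 42.2, 42.9 and 42.1 CPM in Veh, 40.7, 44.7 and 42.7 in OCY-EV+ANTA-NC, and 47.3, 52.6 and 47.0 in OCY-EV+ANTA. Veh and OCY-EV+ANTA-NC lay together, and every OCY-EV+ANTA library was above them. Its log2 fold change was 0.20 (SE 0.06, adjusted p = 0.021) against OCY-EV+ANTA-NC and 0.21 (SE 0.06, adjusted p = 0.028) against Veh. The first call was lost without OCY-EV+ANTA-NC 1 (adjusted p = 0.0966), OCY-EV+ANTA-NC 3 (0.0540) or OCY-EV+ANTA 2 (0.144). The second was lost without Veh 1 (0.0785), Veh 2 (0.0839), Veh 3 (0.0945) or OCY-EV+ANTA 2 (0.155). Rbm15b had log2 values of 0.06 (SE 0.07, adjusted p = 0.59) and 0.08 (SE 0.07, adjusted p = 0.58) in the same comparisons. Rbm33, which in human cells binds m6A and assists the demethylase ALKBH5, had 0.04 and 0.03 (adjusted p = 0.66 and 0.79).

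Among the 3 members linked to nuclear RNA decay, Rbm26 rose in OCY-EV+ANTA-NC and fell back in OCY-EV+ANTA. Rbm26 and its paralog Rbm27 associate in human cells with the PAXT connection, which passes polyadenylated nuclear RNA to the exosome. Levels of Rbm26 were 65.3, 65.3 and 63.8 CPM in Veh, 72.9, 74.3 and 74.4 in OCY-EV+ANTA-NC, and 63.0, 67.6 and 70.2 in OCY-EV+ANTA. The OCY-EV+ANTA-NC libraries lay close together and above the rest, and the OCY-EV+ANTA libraries were the most spread. Both calls were near the threshold, with log2 values of 0.19 (SE 0.05, adjusted p = 0.045) in OCY-EV+ANTA-NC against Veh and -0.14 (SE 0.05, adjusted p = 0.040) in OCY-EV+ANTA against OCY-EV+ANTA-NC. The rise was lost without any 1 of the 6 libraries compared: adjusted p was 0.115, 0.129 and 0.183 without Veh 1, 2 and 3, and 0.0811, 0.126 and 0.110 without OCY-EV+ANTA-NC 1, 2 and 3. The fall was lost without Veh 1 (0.0517), Veh 2 (0.0518), OCY-EV+ANTA-NC 1 (0.0702), 2 (0.101) or 3 (0.0857), or OCY-EV+ANTA 1 (0.151) or 2 (0.0719), and with DESeq2 (0.0643). Rbm27 had values of -0.02 and 0.04 (SE 0.04, adjusted p = 0.91 and 0.66) in those comparisons. Rbm7, the RNA-binding subunit of the NEXT complex that targets non-polyadenylated transcripts, had 0.07 and -0.03 (SE 0.04, adjusted p = 0.49 and 0.68).

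All 3 nucleolar members had lower values in OCY-EV+ANTA than in OCY-EV+ANTA-NC, as had 21 of the 32 members and 5841 of all 11562 genes. Of the 3, Rbm28 alone was called in the fit of all 9 libraries, beside 7.09% of all genes called lower. Rbm28 is the counterpart of a yeast factor needed to assemble the large ribosomal subunit. It was measured at 71.1, 73.3 and 70.9 CPM in Veh, 74.1, 73.7 and 78.2 in OCY-EV+ANTA-NC, and 68.1, 67.2 and 67.2 in OCY-EV+ANTA. The 3 groups did not overlap at all, with OCY-EV+ANTA lowest and tightest. The log2 fold change of OCY-EV+ANTA against OCY-EV+ANTA-NC was -0.16 (SE 0.04, adjusted p = 0.015), and without OCY-EV+ANTA-NC 3 the adjusted p was 0.0657. Against Veh it was -0.09 (SE 0.04, adjusted p = 0.23). Rbm34 had -0.17 (SE 0.07, adjusted p = 0.15) and Rbm19, needed for processing ribosomal RNA, -0.36 (SE 0.17, adjusted p = 0.17) against OCY-EV+ANTA-NC. In edgeR Rbm34 was called lower without OCY-EV+ANTA 1 (-0.25, adjusted p = 0.040), and Rbm19 without OCY-EV+ANTA-NC 3 (-0.53, adjusted p = 0.036).

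Of the 3 members that act on stability, translation or editing of mRNA, Rbm47 rose in OCY-EV+ANTA against both other groups. Rbm47, the cofactor of Apobec1, was measured at 136.8, 134.9 and 141 CPM in Veh, 126.1, 137 and 147.9 in OCY-EV+ANTA-NC, and 149.4, 166.2 and 171.4 in OCY-EV+ANTA. The OCY-EV+ANTA libraries were highest, although their lowest lay just above the highest OCY-EV+ANTA-NC library. The log2 fold change was 0.24 against each of the other groups (SE 0.05), with adjusted p = 0.0044 against OCY-EV+ANTA-NC and 0.011 against Veh. The former held without any single library (adjusted p up to 0.0387), and the latter was lost without Veh 2 (0.0630), OCY-EV+ANTA 2 (0.0572) or OCY-EV+ANTA 3 (0.0736). Rbm3, the cold-inducible member, was measured at 288.2, 284.2 and 275.4 CPM in Veh, 292.4, 283.8 and 276 in OCY-EV+ANTA-NC, and 306.5, 300.7 and 268.9 in OCY-EV+ANTA. Its groups overlapped throughout, and its log2 values were 0.01, 0.04 and 0.05 in the 3 comparisons (SE 0.04 each, adjusted p at least 0.58). With the GC and length trend removed the value in OCY-EV+ANTA against OCY-EV+ANTA-NC was 0.11 (SE 0.04, adjusted p = 0.063). Rbm38, a p53 target that binds the mRNA of the cell cycle inhibitor p21, had -0.16 (adjusted p = 0.42) in OCY-EV+ANTA against OCY-EV+ANTA-NC.

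Of the germ cell and neural members Rbm45 alone was tested, and it fell. Rbm45, known from developing brain, was measured at 23.6, 26.0 and 24.5 CPM in Veh, 29.3, 25.3 and 25.6 in OCY-EV+ANTA-NC, and 23.9, 21.7 and 21.6 in OCY-EV+ANTA. OCY-EV+ANTA-NC 1 stood above the rest of its group, and OCY-EV+ANTA overlapped Veh. The log2 fold change against OCY-EV+ANTA-NC was -0.25 (SE 0.07, adjusted p = 0.024), and it was lost without OCY-EV+ANTA-NC 1 (0.144), OCY-EV+ANTA 2 (0.0878) or OCY-EV+ANTA 3 (0.0785). Rbm44 and Rbm46, genes of germ cells, and Rbm31y were not tested.

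Rbm12, Rbm12b1, Rbm12b2, Rbm14, Rbm18 and Rbm43 have coactivator or less clear roles. None of the 6 was called in any comparison with edgeR, or with DESeq2 where it gave an adjusted p. One of them had an unadjusted p under 0.05. That was Rbm43, the lowest tested member, at 0.842, 0.416 and 0.807 CPM in Veh and 1.68, 1.496 and 0.762 in OCY-EV+ANTA-NC. Its log2 value of 0.95 (SE 0.37, adjusted p = 0.24) was the largest of the family, but these groups overlapped. In OCY-EV+ANTA it was measured at 1.44, 0.995 and 0.863 CPM, just above every Veh library, an order held by 12.3% of all genes. The log2 value against Veh was 0.70 (SE 0.38, adjusted p = 0.32). The paraspeckle protein Rbm14 had values of 0.03, 0.04 and 0.07 in the 3 comparisons.

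GC content was considered because all 3 OCY-EV+ANTA-NC libraries leaned the same way with it. Across 11541 genes, Spearman's rho between a gene's GC content and its deviation from its mean was -0.27, -0.182 and -0.0997 in those libraries. In Veh it was -0.009, 0.095 and 0.22, and in OCY-EV+ANTA between 0.0831 and 0.107. These are descriptions across genes, which are not independent replicates. The tested members had a median GC content of 47.0%, against 50% for all genes tested, and 19 of them lay in the lowest 2 of 5 equal bins of genes by GC content. Among all genes, the lowest bin had a median log2 fold change of 0.05 in OCY-EV+ANTA-NC against Veh, and the highest bin one of -0.05. In OCY-EV+ANTA against OCY-EV+ANTA-NC those medians were -0.06 and 0.04, and in OCY-EV+ANTA against Veh they were -0.0020 and 0.0027. Rbm25 (42.1% GC), Rbm39 (43.2%) and Rbm26 (44.9%), the members called higher in OCY-EV+ANTA-NC against Veh, were GC-poor, as were many members not called. The lowest bin held 11 tested members, and 2 of them were called higher there, beside 2.51% of all genes in that bin. Rbm15 (53.0%) and Rbm20 (54.9%), higher in OCY-EV+ANTA, were the only 2 tested members in the bin next to the highest, while Rbm47 (47.4%) and Rbm22 (48.5%) were near the middle.

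With a per-library trend on GC content and length removed, Rbm25 alone remained called in OCY-EV+ANTA-NC against Veh. Its log2 value was then 0.21 (SE 0.04, adjusted p = 0.0071), where 0.554% of all genes were called. Rbm39 and Rbm26 kept values of 0.16 and 0.15 with adjusted p = 0.088 and 0.14. In OCY-EV+ANTA against OCY-EV+ANTA-NC 8 of the 9 calls remained, with 15.1% of all genes called. The exception was Rbm26, at -0.10 (SE 0.04, adjusted p = 0.14), while Rbm25 stood at -0.33 (SE 0.04, adjusted p = 7.4e-06) and Rbm47 at 0.27 (SE 0.05, adjusted p = 0.0016). The median over members moved from -0.07 to -0.011 in that comparison. In OCY-EV+ANTA-NC against Veh it moved from 0.067 to 0.0469. All 3 calls in OCY-EV+ANTA against Veh remained, with 7.05% of all genes called.

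**Figure D4:**
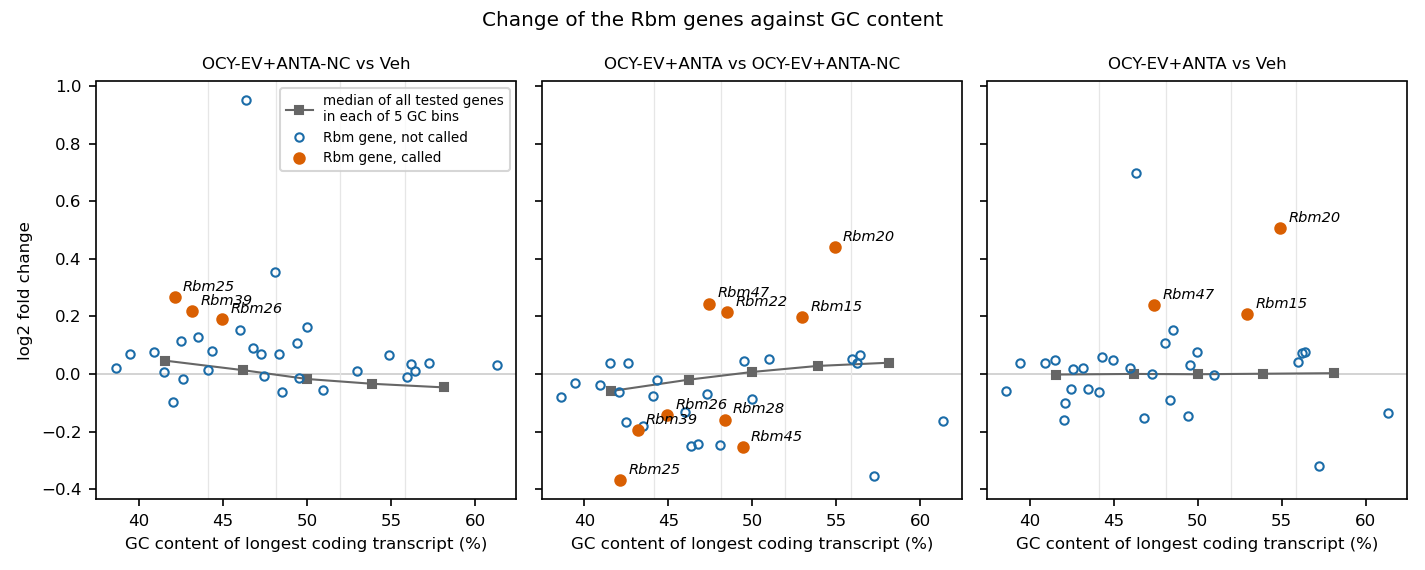
GC content of the longest coding transcript (percent, horizontal) against log2 fold change (vertical) of the 32 tested Rbm genes, over the median of all genes in each of 5 bins of GC content, for the 3 comparisons. The median line of all genes runs from 0.05 down to -0.05 in OCY-EV+ANTA-NC against Veh and from -0.06 up to 0.04 in OCY-EV+ANTA against OCY-EV+ANTA-NC.

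Partners of these proteins, and relatives whose symbol lacks the digit, were read from 8 lists of 66 genes, of which 63 were tested. The list of relatives holds 7 of the genes, with 5 tested. Across them 3 were called in OCY-EV+ANTA-NC against Veh, all higher, 12 in OCY-EV+ANTA against OCY-EV+ANTA-NC, 6 in each direction, and 2 in OCY-EV+ANTA against Veh, 1 in each direction. Those shares, 4.76%, 19.05% and 3.17%, stand beside 1.02%, 14.7% and 6.52% of all genes.

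Of 7 genes of nuclear decay by NEXT and PAXT, 1 was called in OCY-EV+ANTA-NC against Veh and 2 in OCY-EV+ANTA against OCY-EV+ANTA-NC. Zfc3h1, the zinc finger scaffold of PAXT, went from 118.1 CPM in Veh to 150.2 in OCY-EV+ANTA-NC and 113.7 in OCY-EV+ANTA. It rose on the log2 scale by 0.35 (SE 0.06, adjusted p = 0.0024) and fell by 0.40 (SE 0.06, adjusted p = 7.2e-05). Dis3, a catalytic subunit of the exosome, fell by 0.26 (SE 0.07, adjusted p = 0.012) in OCY-EV+ANTA against OCY-EV+ANTA-NC.

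In the list of 8 m6A genes, 2 were called in OCY-EV+ANTA against OCY-EV+ANTA-NC and in opposite directions. Mettl3, the methyltransferase, fell by 0.38 (SE 0.12, adjusted p = 0.031) and Alkbh5, a demethylase, rose by 0.14 (SE 0.03, adjusted p = 0.0079). With DESeq2 the fall of Mettl3 was not called. Of 7 genes of the exon junction complex and nonsense-mediated decay, the core subunit Casc3 rose by 0.18 (SE 0.05, adjusted p = 0.018) in OCY-EV+ANTA against Veh and no other was called with edgeR. Upf3b, a decay factor, had 0.27 (SE 0.07, adjusted p = 0.057) in OCY-EV+ANTA-NC against Veh and was called there with DESeq2 (adjusted p = 0.030).

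Of 12 genes of the U2 particle and branch point, the U2 subunit Sf3b1 rose by 0.16 (SE 0.03, adjusted p = 0.0091) in OCY-EV+ANTA-NC against Veh and fell by 0.12 (SE 0.03, adjusted p = 0.011) in OCY-EV+ANTA against OCY-EV+ANTA-NC. There its partner subunit Sf3b2 rose by 0.11 (SE 0.03, adjusted p = 0.015), and 3 of the 12 were called. Of 12 genes of the U1 particle and the catalytic spliceosome, Prpf8 (0.16, SE 0.04, adjusted p = 0.0082) and Cdc5l (0.14, SE 0.04, adjusted p = 0.030) rose in OCY-EV+ANTA against OCY-EV+ANTA-NC. Of 9 genes of the minor spliceosome, Snrnp48 rose by 0.21 (SE 0.05, adjusted p = 0.031) in OCY-EV+ANTA-NC against Veh, and Pdcd7 by 0.35 (SE 0.11, adjusted p = 0.031) in OCY-EV+ANTA against OCY-EV+ANTA-NC.

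None of the 3 tested genes of C-to-U editing and the cold response was called with edgeR or DESeq2, and 1 in each of the last 2 comparisons had an unadjusted p under 0.05. The smallest adjusted p there was that of Syncrip, 0.14, at -0.10 (SE 0.05) in OCY-EV+ANTA against OCY-EV+ANTA-NC. Of 5 tested relatives whose symbol lacks the digit, Rbms1 fell by 0.15 (SE 0.03, adjusted p = 0.0040) in OCY-EV+ANTA against OCY-EV+ANTA-NC and by 0.13 (SE 0.03, adjusted p = 0.018) against Veh. Rbmx, which has near-identical copies elsewhere in the genome and so an uncertain level, fell by 0.36 (SE 0.10, adjusted p = 0.024) in OCY-EV+ANTA against OCY-EV+ANTA-NC. Its shared sequence was not measured here. In OCY-EV+ANTA-NC against Veh Rbmx had 0.41 (SE 0.10, adjusted p = 0.057, edgeR), and DESeq2 called 1 of the relatives higher there.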

How the data were processed

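RNA-seq of 9 AML12 libraries was analysed from 2 deposited tables per library. The authors deposited counts per gene, made with HTSeq on mm10 per the submitters' processing notes, and FPKM values. The deposited FPKM equalled the count divided by gene length and by the library total. Aligner, annotation and strand setting: not given in the sources used here. Total counts of 17298814 to 21737643 set the precision. The floor of 3 counts and all errors cover counting and the spread between these libraries only.

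Counts were filtered with filterByExpr (smallest count 10, smallest total 15), scaled by TMM and tested in 1 fit of all 9 libraries with edgeR 4.0.16 (quasi-likelihood test, two-sided, R 4.3.3). The threshold for a call was 0.05 on p-values adjusted by Benjamini-Hochberg over 11562 genes. Each SE given with an edgeR log2 value is its absolute size divided by the square root of the F statistic of the test. Identifiers, coordinates, GC content and 3′ UTRs came from GENCODE M21 (GRCm38), which matched 21851 of 21959 identifiers. Sequences are RefSeq's on GRCm38.p6. Shared sequence was measured as the percent of 50-base words of a member's transcript found in another gene.

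Alternatives were DESeq2 1.42.0, library size alone, 2 other filters on low counts, and removal of a per-library trend on GC content and length (natural splines with 5 degrees of freedom, as offsets). Others were the replicate number as a block, limma 3.58.1 on log2(FPKM + 1) and log2(FPKM + 0.1), and the compared groups alone. Fits were also made without single libraries and without all libraries numbered 1. DESeq2 gave no adjusted p for 7 tests of members, which were left out. The count test was tested on simulated data with known changes.

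The members, roles, partner lists and markers were chosen with earlier results of these data known. Values in every library were given for each called member and for the 3 members highest in FPKM. From each partner or relative list up to 2 called genes with the smallest adjusted p were named, or 1 by its value.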

Additional observations from a re-analysis of the deposited data

How the results depend on the processing

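None of the 15 calls reversed its sign under any alternative run. In OCY-EV+ANTA-NC against Veh the 3 calls became 1 with the GC and length trend removed, 1 with limma on log2(FPKM + 1) and 1 on log2(FPKM + 0.1). Without single libraries they ran from 1 (without Veh 1 or OCY-EV+ANTA-NC 3) to 3. In OCY-EV+ANTA against OCY-EV+ANTA-NC the 9 calls ran from 5 (without OCY-EV+ANTA-NC 1 or OCY-EV+ANTA 2) to 9. In OCY-EV+ANTA against Veh the 3 calls became 1 on either FPKM scale and ran from 0 to 4 without single libraries, the 0 being without Veh 2, with 4 members at an unadjusted p under 0.05. The median log2 fold change over members in OCY-EV+ANTA against OCY-EV+ANTA-NC, -0.07, became -0.1034 with library size alone, -0.1022 on log2(FPKM + 0.1) and -0.0107 with the GC and length trend removed, and ran from -0.0879 to -0.0382 (without OCY-EV+ANTA-NC 3) without single libraries. In OCY-EV+ANTA against Veh it ran from -0.0054 (without OCY-EV+ANTA 3) to 0.0446. In OCY-EV+ANTA-NC against Veh it ran from 0.0428 to 0.0909. The causes were not tested.

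Replicate numbers did not meet the criterion set for pairing, a correlation over 0.1 in every pair: the deviations of same-numbered libraries correlated at 0.0285 to 0.245, over 0.1 in 4 of 9 pairs, and those of differently numbered libraries at -0.152 to 0.0779. The pairs of libraries numbered 1 were the highest, at 0.159 to 0.245, and libraries numbered 1 correlated negatively with every library of another group numbered 2 or 3. Deviations from a group's mean cancel within that group. The negative values are thus, in sum, set by the positive ones and add no separate observation. Veh 3 correlated best with libraries numbered 2. Without all libraries numbered 1, 3 members were called higher in OCY-EV+ANTA-NC against Veh and 3 higher in OCY-EV+ANTA against Veh. In OCY-EV+ANTA against OCY-EV+ANTA-NC 3 were then called higher and 3 lower, without Rbm15, Rbm26 and Rbm45. With the replicate number as a block the calls numbered 4, 10 and 5 in the 3 comparisons, in the order of the text, beside 522, 2427 and 1446 of all 11562 genes. The block added calls for Rbm6 in OCY-EV+ANTA-NC against Veh (adjusted p = 0.037) and in OCY-EV+ANTA against OCY-EV+ANTA-NC (0.033), and in OCY-EV+ANTA against Veh for Rbm22 (0.030) and, lower, Rbm25 (-0.10, 0.024). With the block and the GC and length trend removed the calls numbered 2, 9 and 5, beside 420, 2385 and 1464 genes. There the median in OCY-EV+ANTA against OCY-EV+ANTA-NC was -0.0135 and Rbm3 was called in that comparison (0.11, adjusted p = 0.0076). Rbm43, the lowest tested member at 0.416 to 1.68 CPM, was not called at a log2 difference of 0.95, and the cause was not tested.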
